A study of Mus musculus with 4 samples.

Results

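The 41 synaptic vesicle and release machinery genes encode proteins of the vesicle membrane, the fusion apparatus and the vesicle cycle of nerve terminals. They were chosen by function, with earlier results of these data known. They were found by gene symbol in the deposited tables, each once, among 29224 genes in all. RNA was sequenced from cerebral cortex of P5 mice, and the study describes the cells as astrocytes isolated with magnetic beads that bind GLAST, a glutamate transporter of the astrocyte surface, whereas the sample labels name the cortex only. There were 2 libraries of Ezh2 f/f mice, which carry floxed Ezh2 alleles, and 2 of Ezh2 cKO mice, which carry the same alleles and a Cre recombinase under control of Aldh1l1, a gene of astrocytes, so that Ezh2, the histone methyltransferase that places H3K27me3, is deleted where Aldh1l1 is active. The sources do not say whether the libraries came from separate or pooled mice, so p-values measure the spread between these libraries, which may be technical. The comparison asks which of these genes differed in RNA level between the genotypes.

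At a nerve terminal, vesicles filled with transmitter are held by synapsins, brought to the active zone by Rab3 and its effectors, and primed there by RIM and Munc13 proteins. Fusion is driven by the SNARE proteins of vesicle and plasma membrane, held ready by complexins and triggered by synaptotagmins that bind calcium, after which NSF and its adaptors take the SNARE complexes apart and dynamin, amphiphysin and synaptojanin recover the membrane. In the cortex these genes are known chiefly from neurons, in which many of them rise while synapses form after birth, and some, such as Syt11 and Vamp2, are also used in glia.

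The libraries held between 16273308 and 17522152 counts. Ezh2 itself had 434 and 327 counts in Ezh2 f/f against 211 and 164 in Ezh2 cKO (log2FC, the log2 fold change of Ezh2 cKO over Ezh2 f/f, -1.11, adjusted p = 3.26e-05). Counts cover the whole gene, so they do not show which part of it was deleted. In each library a list of neuron markers had a higher summed level than a list of astrocyte markers. The summed FPKM (counts scaled to gene length and library total) of 16 pan-neuron markers was 3433 and 3720 in Ezh2 f/f against 3672 and 3710 in Ezh2 cKO. That of 14 astrocyte markers was 138 and 149 in Ezh2 f/f against 674.1 and 608.2 in Ezh2 cKO. None of the markers in either list was at 0. Aldh1l1 had a log2FC of -0.15 (SE, standard error, 0.10, adjusted p = 0.175), while Slc1a3, which encodes GLAST, was at 1.59 and Aqp4, the water channel of astrocyte endfeet, at 4.42. Mitochondrial ribosomal RNA took 0.0347% and 0.0438% of the counts in Ezh2 f/f against 0.222% and 0.242% in Ezh2 cKO. These differences run along the genotypes, and their part in the results was not tested. In RNA from many cells, fewer cells of a type and less RNA per cell cannot be told apart.

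All 41 genes had enough counts to be tested, and 36 were higher in Ezh2 cKO. They were called by edgeR's quasi-likelihood test at an adjusted p under 0.05, with 2 libraries against 2 and Benjamini-Hochberg adjustment over 16793 genes. Of all genes tested, 34.7% were called higher. Only Syt5 was called lower, against 33.6% of all genes tested, and Sv2a, Vamp1, Syt4 and Syt7 were not called. The higher genes included 26 with at least a 2-fold difference, a size reached by 19.0% of all genes tested. The median log2FC of the 41 genes was 1.18, compared with 0.015 over all genes tested. The SE of the log2FC lay between 0.07 and 0.28 for these genes, and the adjusted p of the higher genes was at most 0.00651. For 36 genes both Ezh2 cKO libraries were above both Ezh2 f/f libraries in CPM (library-scaled counts, with TMM factors), as for 42.8% of all genes tested, for 3 both were below, and for 2 the groups overlapped. Among the 16793 genes tested, both Ezh2 cKO libraries were below for 6976, and the groups overlapped for 2633. Together the 41 genes took 0.674% and 0.703% of the counts in Ezh2 f/f against 1.45% and 1.46% in Ezh2 cKO. Their summed FPKM was 1586 and 1666 in Ezh2 f/f against 3280 and 3268 in Ezh2 cKO. Relative to the summed FPKM of the pan-neuron markers in the same library, this was a ratio of 0.462 and 0.448 in Ezh2 f/f. In Ezh2 cKO that ratio was 0.893 and 0.881. The summed FPKM of these 16 markers was similar in both genotypes, although their median log2FC was 0.55. The size and direction of the change in the ratio depended on the denominator. Over the astrocyte markers it fell, from 11.5 and 11.2 to 4.87 and 5.37. Over the other genes with a part in release, described below, it rose from 1.24 and 1.22 to 1.51 and 1.52. Over the widely expressed paralogs, also described below, it rose from 7.31 and 7.63 to 12.2 and 12.4.

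**Figure D1:**
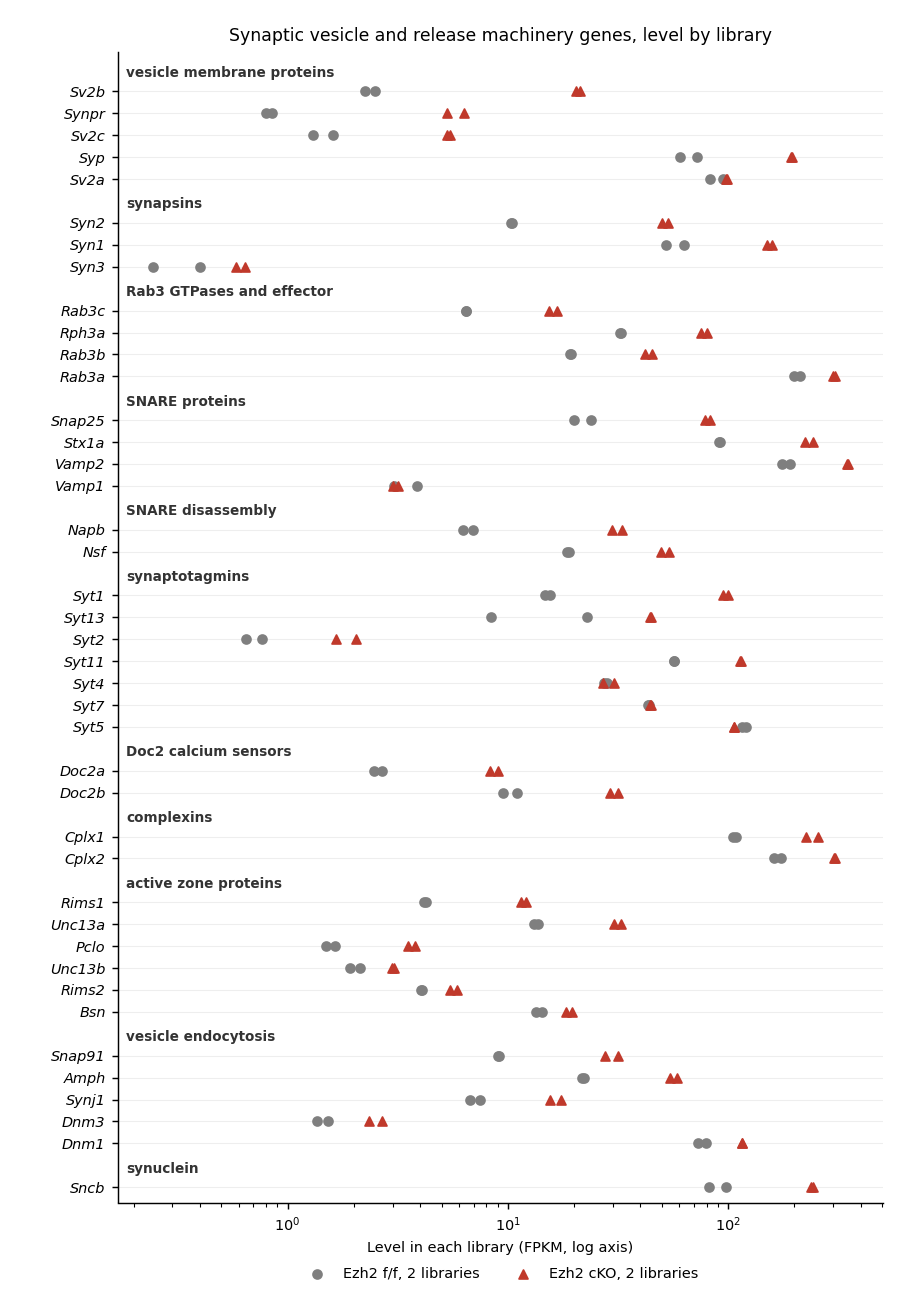
Level of each of the 41 genes in each library, in FPKM on a log axis, grouped by role and sorted within a role by fold change; grey circles are the 2 Ezh2 f/f libraries and red triangles the 2 Ezh2 cKO libraries. The triangles lie to the right of the circles for most genes, and they lie close together for Sv2a, Vamp1, Syt4, Syt5 and Syt7.

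In both genotypes the levels ranged widely, from Syn3 and Syt2 to Rab3a, Vamp2 and Cplx2. In Ezh2 f/f the 5 genes with the highest mean FPKM were Rab3a, Vamp2, Cplx2, Syt5 and Cplx1, and in Ezh2 cKO they were Vamp2, Cplx2, Rab3a, Cplx1 and Sncb. These leading genes held 48.0% of the FPKM of the list in Ezh2 f/f, compared with 43.8% in Ezh2 cKO. The most abundant transcripts were thus already present in Ezh2 f/f, and 25 of the 41 genes had at least 10 FPKM in both genotypes.

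Among the proteins of the vesicle membrane, 4 of 5 genes rose and the family of SV2 transporters, glycoproteins of the synaptic vesicle that bind synaptotagmin, was split. Sv2b had 368 and 305 counts in Ezh2 f/f against 2967 and 2973 in Ezh2 cKO, so that the genotypes were far apart and the libraries of each close together (log2FC 3.05, SE 0.105, adjusted p = 5.23e-11). Sv2c, the paralog best known from the basal ganglia, was also higher, at 1.80. Sv2a, the most widely expressed paralog and the binding site of the antiepileptic drug levetiracetam, had 6715 and 7138 counts in Ezh2 f/f against 7864 and 7674 in Ezh2 cKO. In CPM its groups overlapped, and its log2FC was 0.07 (SE 0.09, adjusted p = 0.499). Sv2b therefore went from 2.90% and 2.27% of the family's FPKM to 16.5% and 16.9%, while Sv2a held 95.6% and 96.1% in Ezh2 f/f against 79.2% and 78.8% in Ezh2 cKO. Synpr, which encodes synaptoporin, had 132 and 130 counts in Ezh2 f/f against 865 and 997 in Ezh2 cKO (log2FC 2.74, SE 0.13, adjusted p = 7.58e-10). Its relative Syp, which encodes synaptophysin, the most used marker of synaptic vesicles, was at 60.2 and 72.2 FPKM in Ezh2 f/f against 195.4 and 192.2 in Ezh2 cKO, which gave a log2FC of 1.47 (SE 0.09).

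The 3 synapsins, phosphoproteins that tether vesicles into a reserve pool, were all higher. Syn2 had 1269 and 1190 counts in Ezh2 f/f against 6109 and 6267 in Ezh2 cKO, with libraries of a genotype within a few percent of each other (log2FC 2.24, SE 0.09, adjusted p = 1.92e-10). Syn1 was the most abundant of them, with 52.3 and 63.1 FPKM in Ezh2 f/f against 149.5 and 158.4 in Ezh2 cKO (log2FC 1.33, SE 0.10). Syn2 took 16.4% and 14.1% of synapsin FPKM in Ezh2 f/f against 25.0% and 25.2% in Ezh2 cKO. Syn3, a synapsin known from developing neurons, had only 86 and 49 counts in Ezh2 f/f against 124 and 132 in Ezh2 cKO. Its log2FC was 0.84 (SE 0.24, adjusted p = 0.00651). The difference for Syn3 was not called without Ezh2 f/f replicate 2 (0.53, adjusted p = 0.0502) or without Ezh2 cKO replicate 2 (0.78, adjusted p = 0.0668), where all alternatives ranged from 2.48e-05 to 0.0989.

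The promoters of Syn1 and Unc13a are shown because, among those of these genes, they held the letters of an arm of RE1, the element bound by REST, a repressor of neuronal genes outside neurons, and those of Sv2a and Sv2b because the paralogs differed most in response within a family of the vesicle membrane. RefSeq windows on GRCm38.p6, from 250 bases before a start site to 50 after it, were at hand for 31 of the 41 genes, 42 windows in all. Capitals mark the left arm of RE1 (TTCAGCACC), its right arm (GGACAGCGC), the cAMP response element (TGACGTCA) and the TATA box (TATAAA), searched on both strands. Sequences run 5′ to 3′ on the strand of the gene, and positions are counted from the start site.
Syn1, chrX:20920869-20921168, minus strand: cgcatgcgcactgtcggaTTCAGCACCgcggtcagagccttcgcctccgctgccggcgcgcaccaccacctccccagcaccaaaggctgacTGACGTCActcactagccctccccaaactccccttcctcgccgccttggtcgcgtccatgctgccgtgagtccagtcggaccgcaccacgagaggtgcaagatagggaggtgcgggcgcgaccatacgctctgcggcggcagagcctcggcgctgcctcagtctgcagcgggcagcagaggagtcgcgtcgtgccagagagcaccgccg
Unc13a, chr8:71671708-71672007, minus strand: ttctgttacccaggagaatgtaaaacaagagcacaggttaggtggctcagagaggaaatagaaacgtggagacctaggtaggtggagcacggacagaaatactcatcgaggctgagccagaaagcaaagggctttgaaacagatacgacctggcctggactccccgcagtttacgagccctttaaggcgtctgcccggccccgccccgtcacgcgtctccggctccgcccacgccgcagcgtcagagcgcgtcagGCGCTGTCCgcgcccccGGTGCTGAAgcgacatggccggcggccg
Sv2a, chr3:96180977-96181276, plus strand: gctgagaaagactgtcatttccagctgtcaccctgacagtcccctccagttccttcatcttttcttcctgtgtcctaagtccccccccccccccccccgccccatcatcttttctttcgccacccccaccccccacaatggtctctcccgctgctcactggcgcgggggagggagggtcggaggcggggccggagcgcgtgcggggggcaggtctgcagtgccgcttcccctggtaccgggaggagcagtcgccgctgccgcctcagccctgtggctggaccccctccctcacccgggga
Sv2b, the window farthest upstream of 4, chr7:75309213-75309512, minus strand: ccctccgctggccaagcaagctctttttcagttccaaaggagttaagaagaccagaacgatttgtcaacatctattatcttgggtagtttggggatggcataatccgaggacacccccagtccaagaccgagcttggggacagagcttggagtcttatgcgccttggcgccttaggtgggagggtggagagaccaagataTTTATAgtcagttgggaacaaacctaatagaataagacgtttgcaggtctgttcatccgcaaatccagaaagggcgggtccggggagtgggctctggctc
In the Syn1 promoter the left arm of RE1 began at -232, on the strand of the gene. The cAMP response element, whose letters read the same on both strands, began at -159. In Unc13a both arms of RE1 lay on the opposite strand, starting at 6 and 23, a short distance apart. In the Sv2b window the TATA box was on the opposite strand. The left arm of RE1 was found in 2 of the 42 windows of these genes (4.76%) and in 0.371% of all 32851 RefSeq windows. The right arm was in 1 window (2.38%) and in 0.405% of all, and the cAMP response element in 1 window (2.38%) and in 1.79% of all. The TATA box was in 7.14% of the windows and in 13.6% of all. The GC box (GGGCGG), which is not marked in the sequences, was in 59.5% of the windows of these genes and in 35.7% of all. The median window of these genes held 17.5 CpG and 61.3% G and C, compared with 7 CpG and 52.7% in all windows. The Sv2a window held 17 CpG and the Sv2b window shown 10, while the other Sv2b windows held 0, 2 and 9. Which start site was used in these cells was not tested. A match of letters describes the window and is not a bound site.

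The Rab3 proteins are small GTPases that bring vesicles to their release sites, and rabphilin, encoded by Rph3a, binds their active form. All 4 genes were higher. Rab3a, the main form in brain, was the most abundant gene of the list in Ezh2 f/f, with 198.7 and 211.7 FPKM, and was at 298.6 and 304.5 in Ezh2 cKO. Its counts were 7748 and 7667 in Ezh2 f/f against 11515 and 11299 in Ezh2 cKO, and the log2FC was smaller than that of its paralogs (0.47, SE 0.08, adjusted p = 1.09e-04). Rab3c was at 1.24, Rph3a at 1.18 and Rab3b at 1.10 on the log2 scale, with SE of 0.09, 0.09 and 0.10. Rab3a held 88.6% and 89.1% of the FPKM of Rab3a, Rab3b and Rab3c together in Ezh2 f/f against 83.1% and 83.8% in Ezh2 cKO. Rab3d, the paralog best known from secretory cells outside the brain, had a log2FC of 0.05 (adjusted p = 0.656).

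Of the 4 SNARE genes, 3 were higher. Snap25, which encodes the SNARE of the plasma membrane that contributes a pair of helices to the complex, had 2840 and 2216 counts in Ezh2 f/f against 9255 and 9372 in Ezh2 cKO (log2FC 1.79, SE 0.10). Stx1a, its syntaxin partner, was at 90.8 and 91.5 FPKM in Ezh2 f/f against 242.8 and 223.5 in Ezh2 cKO (log2FC 1.27, SE 0.09). Vamp2, the SNARE of the synaptic vesicle, had 11762 and 11891 counts in Ezh2 f/f against 23100 and 21899 in Ezh2 cKO (log2FC 0.83, SE 0.08, adjusted p = 3.39e-07). At 349.9 and 344.7 FPKM it was the most abundant gene of the list in Ezh2 cKO. Vamp1, the paralog known mainly from spinal cord and brainstem, went the other way in value, with 541 and 641 counts in Ezh2 f/f against 533 and 539 in Ezh2 cKO. Its libraries did not overlap in CPM, but the difference was not called (log2FC -0.24, SE 0.13, adjusted p = 0.107). Without Ezh2 f/f replicate 1 it was called lower, at -0.41 (adjusted p = 0.00448, where all alternatives reached up to 0.708).

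The genes that take the SNARE complex apart were higher as well. Napb, the neuronal form of the adaptor that loads NSF onto the complex, had 773 and 795 counts in Ezh2 f/f against 3616 and 3858 in Ezh2 cKO (log2FC 2.16, SE 0.10, adjusted p = 6.06e-10). Nsf, the ATPase itself, was at 1.38 (SE 0.09). The widely expressed adaptors Napa and Napg were at 0.28 (SE 0.09, adjusted p = 0.0109) and 0.92 (SE 0.11, adjusted p = 3.38e-06). Napb held 11.0% and 12.3% of the FPKM of the 3 adaptors in Ezh2 f/f against 30.2% and 32.1% in Ezh2 cKO, while Napa held 76.1% and 76.5% and then 56.8% and 53.7%.

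**Figure D2:**
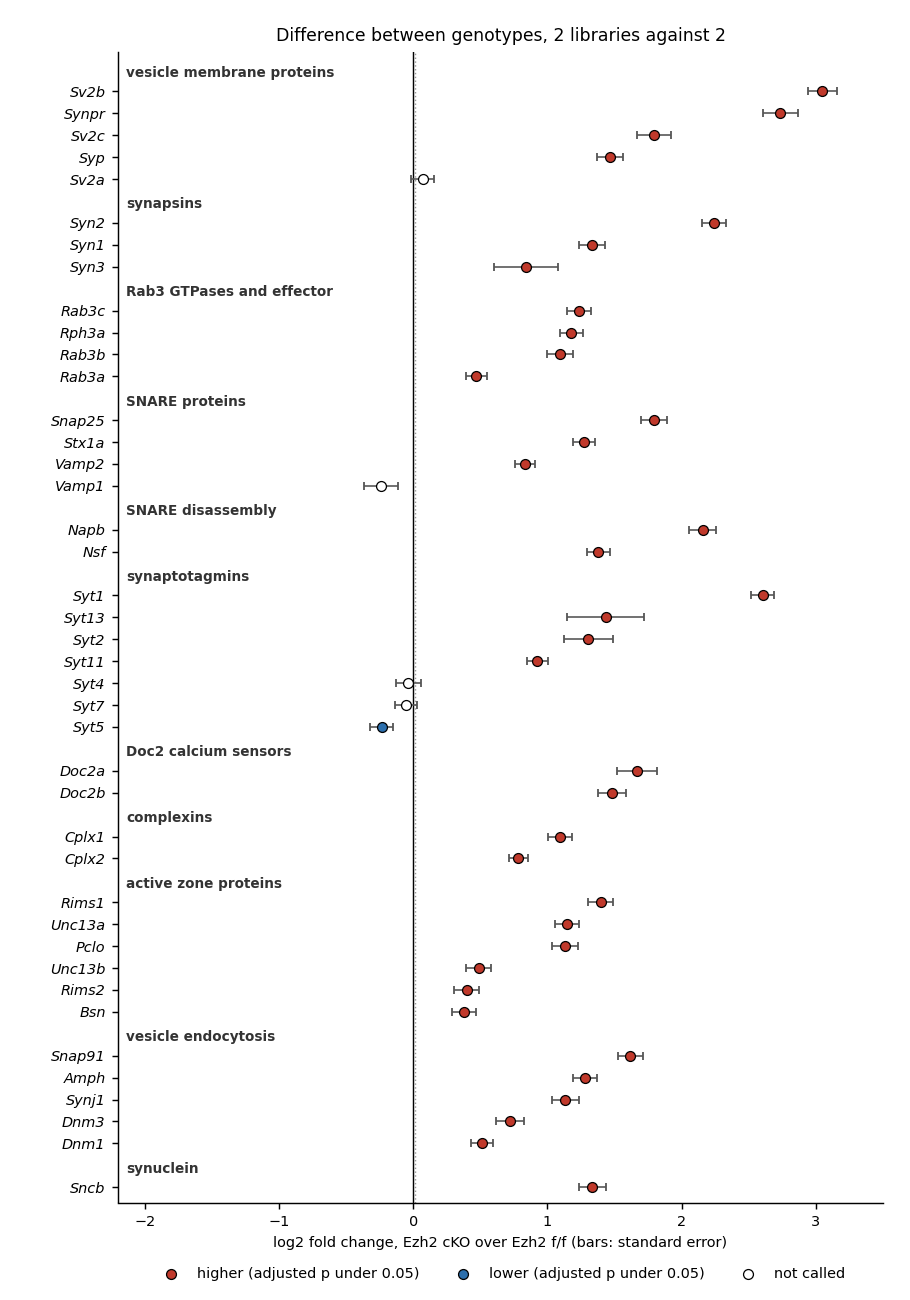
Log2FC of Ezh2 cKO over Ezh2 f/f for each gene from edgeR, with bars of 1 SE, by role; red points were called higher, the blue point lower and white points not called, the solid line marks 0 and the dotted line the median of all genes tested (0.015). Sv2b, Synpr, Syt1, Syn2 and Napb lie beyond 2, and Syt5, Vamp1, Syt7 and Syt4 lie at or below 0.

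The synaptotagmins were the family with calls in both directions. Syt1, the calcium sensor of fast synchronous release in forebrain neurons, had 2149 and 2112 counts in Ezh2 f/f against 13734 and 13945 in Ezh2 cKO. It had the smallest p of the list, with a 6.09-fold difference (log2FC 2.61, SE 0.09, adjusted p = 4.14e-11). Syt2, a fast sensor best known from hindbrain and some interneurons, had 87 and 95 counts in Ezh2 f/f against 219 and 261 in Ezh2 cKO (log2FC 1.30, SE 0.18, adjusted p = 2.38e-05). Syt5, a further member found on secretory vesicles, had 5015 and 4477 counts in Ezh2 f/f against 4366 and 4216 in Ezh2 cKO. It was called lower by a small margin (log2FC -0.24, SE 0.08, adjusted p = 0.0209), and the call was lost without Ezh2 f/f replicate 1 (-0.22, adjusted p = 0.0585), without Ezh2 cKO replicate 1 (-0.25, adjusted p = 0.0739), without Ezh2 cKO replicate 2 (-0.22, adjusted p = 0.0918) and with limma on FPKM (-0.15), where all alternatives ranged from 0.00871 to 0.0976. Among these 3 sensors Syt1 held 10.8% and 11.8% of the FPKM in Ezh2 f/f against 46.9% and 48.1% in Ezh2 cKO, and Syt5 held 88.7% and 87.6% and then 52.3% and 50.9%.

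Syt7, a slow sensor with high affinity for calcium, had 5669 and 5350 counts in Ezh2 f/f against 5745 and 5576 in Ezh2 cKO (log2FC -0.05, SE 0.08, adjusted p = 0.570). Syt4, which is found on dense-core vesicles and is induced by activity, had 1925 and 1736 counts in Ezh2 f/f against 1824 and 1972 in Ezh2 cKO (log2FC -0.04, SE 0.09, adjusted p = 0.727), and its groups overlapped. Both signs changed in limma on log2(FPKM + 1), a fit without TMM, where Syt7 was at 0.03 and Syt4 at 0.04. The sign of Syt4 also changed with TMM kept, at 0.03 without Ezh2 cKO replicate 1. Syt11, which does not bind calcium and acts in membrane traffic of neurons and glia, had 5180 and 4814 counts in Ezh2 f/f against 10245 and 9971 in Ezh2 cKO (log2FC 0.92, SE 0.08, adjusted p = 1.74e-07). Syt13, another member that does not bind calcium, was uneven within Ezh2 f/f. It had 553 counts in Ezh2 f/f replicate 1 and 1394 in replicate 2, compared with 2922 and 2779 in Ezh2 cKO (log2FC 1.43, SE 0.28, adjusted p = 4.67e-04). Both Ezh2 cKO libraries were above both Ezh2 f/f libraries, and the size rested on which of the latter was used. Leaving out Ezh2 f/f replicate 2 gave 2.32 and leaving out replicate 1 gave 0.88, and its adjusted p was 0.0577 with DESeq2, where all alternatives ranged from 7.66e-68 to 0.0734. Over the 7 synaptotagmins the summed FPKM was 272.2 and 282.9 in Ezh2 f/f against 432.3 and 442.7 in Ezh2 cKO.

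**Figure D3:**
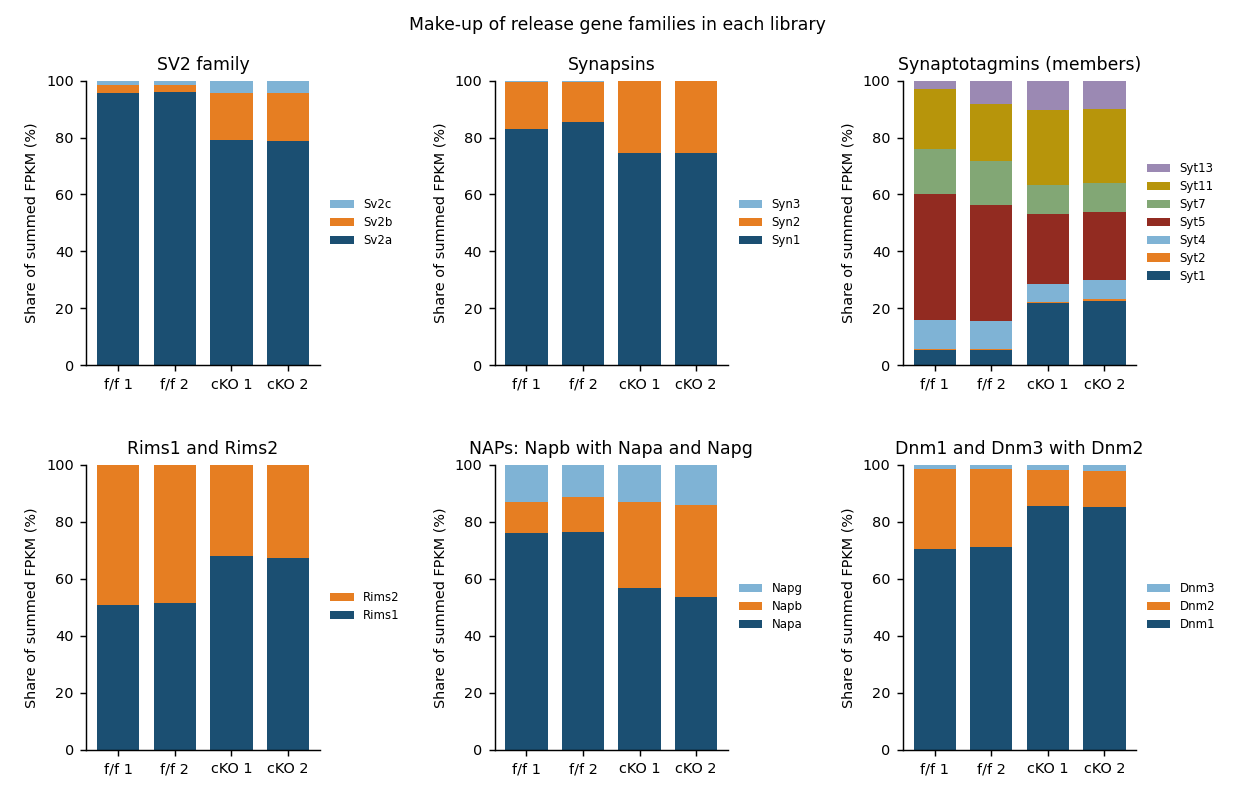
Share of each gene in the summed FPKM of its family (vertical axis, percent) in each of the 4 libraries, for the SV2 family, synapsins, synaptotagmins, Rims1 and Rims2, NAP adaptors and dynamins; Napa, Napg and Dnm2 are widely expressed paralogs outside the list of 41. Sv2b, Syn2, Syt1, Rims1, Napb and Dnm1 have larger shares in both cKO libraries than in both f/f libraries.

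The Doc2 proteins, soluble calcium sensors with a role in spontaneous release, were both higher. Doc2a was at 1.67 and Doc2b at 1.48 on the log2 scale, with SE of 0.15 and 0.11. The complexins, small proteins that clamp the assembled SNARE complex, were higher as well. Cplx1 had 4155 and 3739 counts in Ezh2 f/f against 9688 and 8266 in Ezh2 cKO (log2FC 1.09, SE 0.09, adjusted p = 1.21e-07). Cplx2 had the highest counts of the list, with 14955 and 12890 in Ezh2 f/f against 25825 and 25191 in Ezh2 cKO (log2FC 0.78, SE 0.07, adjusted p = 3.52e-07). Cplx2 held the larger share of their summed FPKM in every library, at 61.5% and 60.5% in Ezh2 f/f against 54.2% and 57.5% in Ezh2 cKO. Cplx3, a complexin of retina and of subplate neurons that is outside the list of 41, rose from 40 and 34 counts to 1001 and 693 (log2FC 4.42, SE 0.20, adjusted p = 5.51e-10).

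The active zone is the protein mat at which vesicles dock. All 6 of its genes were higher, by a median of 0.81 on the log2 scale. Rims1, which encodes a scaffold that binds Rab3 and calcium channels, was at 1.40 (SE 0.09), and its paralog Rims2 at 0.40 (SE 0.09). Their levels were nearly equal in Ezh2 f/f, at 4.18 and 4.27 FPKM for Rims1 and 4.07 and 4.02 for Rims2. In Ezh2 cKO they were apart, at 11.5 and 12.1 for Rims1 and 5.44 and 5.87 for Rims2. Unc13a, which encodes Munc13-1, the main priming factor of cortical synapses, was at 1.14, and Unc13b, which encodes Munc13-2, at 0.49. Piccolo and bassoon, giant scaffold proteins of the active zone with related structures, also had unequal values, with Pclo at 1.13 and Bsn at 0.38. The SE was 0.09 for each of these 4 genes.

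The 5 genes of vesicle recovery were all higher. Snap91 encodes AP180, a clathrin adaptor of synapses, and had a log2FC of 1.62 (SE 0.09). Amph, which encodes amphiphysin, a partner of dynamin that senses membrane curvature, was at 1.28, and Synj1, a lipid phosphatase that strips clathrin from vesicles, at 1.13. Dnm3 was at 0.72 and Dnm1, the dynamin of nerve terminals, at 0.51, whereas the widely expressed Dnm2 was lower, at -0.89 (SE 0.09, adjusted p = 9.27e-07). Among the 3 dynamins Dnm1 held 70.4% and 71.2% of the FPKM in Ezh2 f/f against 85.6% and 85.2% in Ezh2 cKO. Sncb, which encodes beta-synuclein, a small protein of presynaptic terminals, had 3082 and 3417 counts in Ezh2 f/f against 9051 and 8493 in Ezh2 cKO (log2FC 1.34, SE 0.10, adjusted p = 3.81e-08).

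Other genes with a part in release gave a more mixed picture. Of 47 such genes, 46 were tested. Beside 34.7% higher and 33.6% lower among all genes tested, 29 of these were higher and 9 lower, and their median log2FC was 0.46. Among the higher ones with the smallest p were Cplx3, Cadps2 (a priming factor of dense-core vesicles, 2.85) and Apba1 (the adaptor Mint1, 2.30). Of the 9 lower ones, the 4 with the smallest p were Rims3 (a short RIM protein, -1.46), Ppfia1 (liprin-alpha-1, -1.15), Dnajc5 (the vesicle chaperone CSP-alpha, -0.53) and Stxbp5 (tomosyn, an inhibitor of SNARE assembly, -0.63). Rims4, the other short RIM, was at 0.26 and Unc13c at 3.12. Of the synaptotagmins outside the list of 41, Syt3, Syt12 and Syt17 were higher (0.83, 1.18 and 2.56), Syt6 was lower (-0.28), and Syt9 and Syt10 were not called (-0.24 and 0.47). Sncg, which encodes gamma-synuclein, had 6 and 34 counts in Ezh2 f/f against 10 and 14 in Ezh2 cKO and was not called.

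Paralogs of these genes that are expressed widely outside neurons were examined in the same fit. Of 19 listed, 18 were in the tables and tested. Beside 34.7% higher and 33.6% lower among all genes tested, 8 of these were higher and 3 lower, and their median log2FC was 0.18. Smallest in p among the higher ones were Stx4a (a syntaxin of general exocytosis, 1.80), Synj2 (2.52), Napg and Vamp4 (a SNARE of the Golgi and endosomes, 0.73). The 3 lower ones were Dnm2, Sh3gl1 (an endophilin, -0.45) and Stx3 (-0.43). Snap23, the counterpart of Snap25 outside neurons, was at 1.02 and Snap29 at 0.55. Bin1, the amphiphysin paralog, was at 0.47, whereas Picalm, the AP180 paralog, was not called (-0.09). The other paralogs not called were Vamp3 (-0.08), Vamp8 (-0.35), Stx2 (0.06), Sypl (0.09), Unc13d (0.28) and Rab3d.

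**Figure D4:**
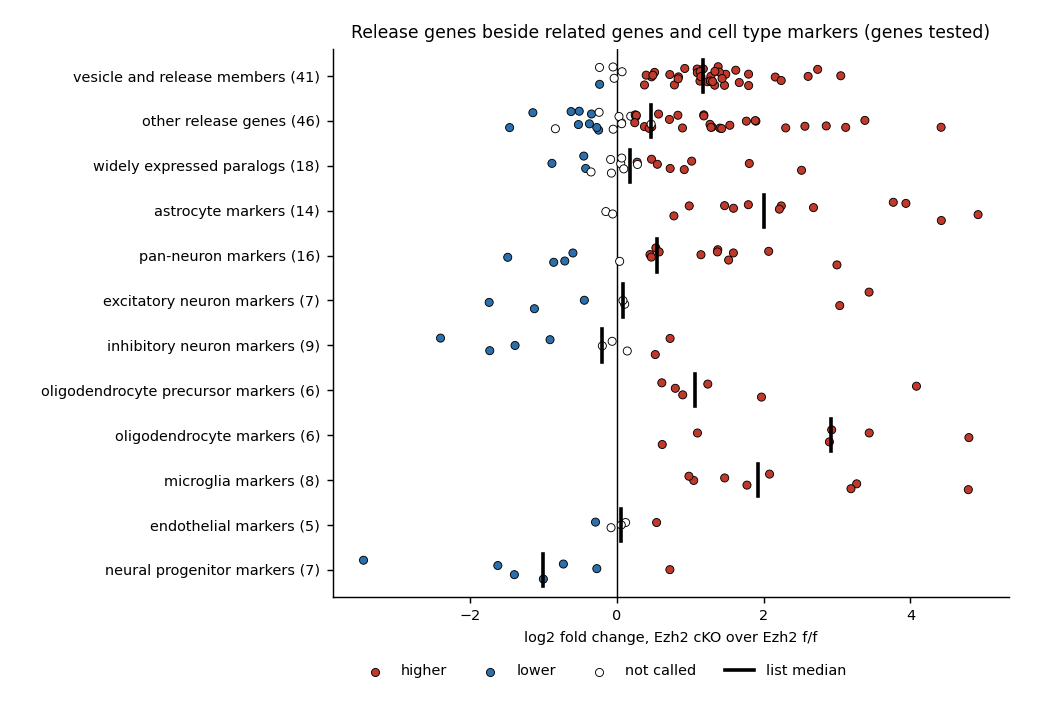
Log2FC of Ezh2 cKO over Ezh2 f/f for each gene tested, by list, with the number tested in parentheses; red points were called higher, blue lower and white not called, and the black bar is the list median, while vertical jitter within a list has no meaning. The 41 release genes have a median of 1.18, between that of the pan-neuron markers (0.55) and that of the astrocyte markers (2.00).

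The marker lists gave the setting of these differences, beside 34.7% of all genes tested called higher and 33.6% called lower. Of 16 pan-neuron markers 11 were higher and 4 lower, with a median log2FC of 0.55, beside 1.18 for the 41 release genes. Rbfox3 was at 0.58, Map2 at 0.53 and Tubb3 at -0.71, so the markers of neurons went in both directions. Of 7 excitatory neuron markers 2 were higher and 3 lower (median 0.08), and of 9 inhibitory neuron markers 2 were higher and 4 lower (median -0.20). The summed FPKM of the excitatory markers was nevertheless 320.1 and 287.8 in Ezh2 f/f against 673.8 and 645.7 in Ezh2 cKO. That of the inhibitory markers was 496.2 and 426.7 in Ezh2 f/f against 545.8 and 534.5 in Ezh2 cKO. Of 14 astrocyte markers 12 were higher and 2 were not called (median 2.00). All 6 oligodendrocyte precursor markers, all 6 oligodendrocyte markers and all 8 microglia markers were higher, with medians of 1.07, 2.91 and 1.93. Of 7 neural progenitor markers 1 was higher and 6 were lower (median -1.004), and of 5 endothelial markers 1 was higher and 1 lower (median 0.06). The part of these cell types in the values of the release genes was not tested.

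The 41 genes lie on 18 chromosomes, and Cplx2 and Sncb, both on chromosome 13, are 374.9 kb apart. The median genomic span was 64.3 kb for these genes and 20.9 kb for all genes tested. Across the 41 genes the span and the log2FC had a Spearman rho of 0.26, and across all genes tested one of 0.11, a description over genes that share the same 4 libraries. Whether the counting used strand is not given in the sources used here, and 20 of the 41 genes overlap a gene on the opposite strand. Overlap was taken from whole gene spans and not from exons, so whether reads of such pairs were confused was not tested. The partners with at least 100 counts in a library were Araf (Syn1), Timp4 (Syn2), Timp3 (Syn3), Mpv17l2 (Rab3a), Tapbpl (Vamp1), Ppp1r12b (Syt2), Ino80e (Doc2a), Colgalt1 (Unc13a) and Ciz1 (Dnm1). For Syt2, Syn3 and Doc2a the partner had more counts than the gene. Ppp1r12b had 2441 and 1863 counts in Ezh2 f/f against 2670 and 2567 in Ezh2 cKO beside Syt2. Timp3 had 478 and 431 and then 348 and 347 beside Syn3, and Ino80e had 703 and 650 and then 624 and 600 beside Doc2a. Timp4, which overlaps Syn2, had 122 and 130 counts and then 680 and 529.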

How the data were processed

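RNA-seq of 2 Ezh2 f/f and 2 Ezh2 cKO libraries was analysed. The authors deposited raw counts per gene and FPKM values, which equalled the count over gene length and library total. Their table also holds means, fold changes, log2 values and p-values of their own comparison, which were not used; 0 sample columns were left out. The submitters' processing notes name Bowtie2 2.2.3, TopHat2 2.0.12, HTSeq 0.6.0 and the build mm9; the annotation and the strand setting are not given in the sources used here. Deposited gene positions did not match GRCm38 and were used only for spans, neighbours and overlaps.

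Totals were 16273308 to 17522152 counts per library, and the smallest count of a member in a library was 49. Genes were filtered with filterByExpr in edgeR 4.0.16 (R 4.3.3), scaled by TMM and compared with the quasi-likelihood test on all 4 libraries, modelling genotype alone (common BCV, the biological coefficient of variation, 0.0953). CPM and fold changes are from that scaling, and summed FPKM and family shares from the deposited FPKM. An exact permutation test of 2 against 2 values cannot give a p below 0.333, so p-values come from the fit across genes. The scripts were tested on simulated data in which few genes were changed, so the scaling was not tested where many genes differ. Alternatives were DESeq2 1.42.0, edgeR with the size factors of DESeq2, edgeR unfiltered, limma 3.58.1 on log2(FPKM + 1) (at least 1 FPKM in 2 libraries, or no filter) and on log2(FPKM + 0.1), the replicate number as a block, and each library left out. Promoters are from RefSeq. Python 3.11.15 was used for tables and figures.

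The members and gene lists were chosen with earlier results of these data known. All 41 members are named by role; values per library and full statistics were given for the 5 higher and 5 lower members with the smallest p, members not called, members with the 5 highest mean FPKM in either group, and families called in opposite directions. Of the other release genes and the paralogs, the 4 higher and 4 lower with the smallest p and paralogs of a member family were named, except for results that are not reported here. Values per library of Syn1, Syp, Syn3, Snap25, Stx1a, Rims1, Rims2, Cplx3 and Sncg, family shares, all values of overlapping partners, and the promoters shown were chosen after their values were seen.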

Additional observations from a re-analysis of the deposited data

How the results depend on the processing

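Under the alternatives that kept all 4 libraries, 34 to 36 of the 41 genes were higher in Ezh2 cKO. Of all genes tested, the share called higher in these fits ran from 18.5% to 36.6%. The lowest was with limma on log2(FPKM + 1) without a filter and the highest with that fit filtered. The count of lower genes was 0 with limma on log2(FPKM + 1), on log2(FPKM + 0.1) and without a filter. Of all genes tested, 33.7%, 33.4% and 15.5% were called lower in these 3 fits. In the same order, 0, 0 and 1 of the 41 genes were lower at an unadjusted p under 0.05. Without Ezh2 f/f replicate 1, Vamp1 was at -0.41 and Syt5 at -0.22. The median log2 fold change was 1.26 with limma on log2(FPKM + 0.1), where 40 genes passed the filter, and 1.16 to 1.20 when each library was left out. Of 449 values of single genes under alternatives, 429 kept direction and call, 11 lost the call, 1 gained it and 8 changed sign, and 34 of the 41 genes kept their call and sign under every alternative. The sign changed only for genes that were not called. Syt4 was at 0.04 in all 3 limma fits (0.042, 0.043 and 0.042) and between -0.105 and 0.03 when each library was left out, the highest without Ezh2 cKO replicate 1, Syt7 at 0.029, 0.03 and 0.029 in the limma fits, and Sv2a between -0.032, without Ezh2 f/f replicate 1, and 0.162 when each library was left out. Syt13 was not called with DESeq2 (1.41) or with limma without a filter (1.61, adjusted p = 0.0734), nor was Syn3 in the latter (0.29, adjusted p = 0.0989). Where 1 library of a group was left out, the other was assumed to vary like the other group. The cause was not tested.

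The replicate numbers of the groups came from the labels, and nothing states that they mark a shared mouse, litter or day. Deviations of libraries with the same number correlated with r = 0.13, and with 2 pairs this does not show pairing. With the replicate block, 36 genes were higher and 1 lower, beside 34.5% and 33.3% of all genes tested. The median log2FC of the 41 genes was then 1.18, and the block changed no call. Counting depth limits the genes with the fewest counts, Syn3, Synpr, Syt2 and Doc2a.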
